A study of Mus musculus with 4 samples.

Results

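The distal ends of the 19 mouse autosomes were described through the anti-FLAG ChIP peaks that lay there. A peak was taken as distal when its start lay within 5 Mb of the stop of the last peak on the same chromosome, which selected 1253 of 37778 peaks (3.32%). The position of the last peak stood in for the chromosome end, because no chromosome lengths of mm9, the build of all positions here, were used. The values of the peaks played no part in the choice. Chromatin came from the dentate gyrus, the hippocampal region of granule neurons and adult neural stem cells, of C57BL6 mice about 9 weeks old. All 4 libraries came from a line carrying FLAG-tagged Mbd1, 2 of them precipitated with anti-FLAG antibody and 2 input libraries made without antibody. Precipitation from untagged animals is not among them, and neither the construct behind the tag nor the number of animals per library is stated in the labels. The deposited data are a single list for the 4 libraries together, so no difference could be compared with the spread between replicates and no p-value is given. The depth of each library is unknown.

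MBD1 recognises methylated CpG through its methyl-CpG-binding domain, carries CXXC zinc fingers as well, and recruits repressive chromatin factors. In the dentate gyrus it is known for a role in adult neural stem cells. Mouse autosomes are telocentric, with the centromere at the proximal end, so the distal end of each is the telomeric end that lies farthest from it. Recombination and GC content are in general higher toward telomeric ends, and the ends differ in how many genes they hold. DNA sequence of the peaks was not analysed here, and no gene annotation of mm9 was used.

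The distal ends were peak-poor on most chromosomes and very peak-rich on 3. Over all 19 autosomes the distal 5 Mb held 13.2 peaks per Mb, the 5 Mb before them 9.67, and the rest, from the first peak to 10 Mb before the last, 16. The number of distal peaks was 0.838 times the number given by the density of the rest of the same chromosomes (exact 95% counting interval 0.791 to 0.886). It was below the rest on 13 chromosomes, 12 of them with an interval below 1. On 6 it was above, and on 3 of these the interval lay above 1. These intervals treat peaks as independent, which neighbouring peaks are not, and are therefore too narrow. Distal peaks covered 4.85% of the distal sequence, and peaks of the rest covered 6.31% of theirs. The direction depended on which peaks were counted. Peaks with the authors' quality flag, which coincided in this list with a smallest bin p of at most 0.0001, were 1.197 times as dense distally as in the rest (1.10 to 1.31), and denser on 13 of 19 chromosomes. Without chromosomes 13, 17 and 18 that ratio was 1.03 (0.932 to 1.14), an interval that includes 1.

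**Figure D1:**
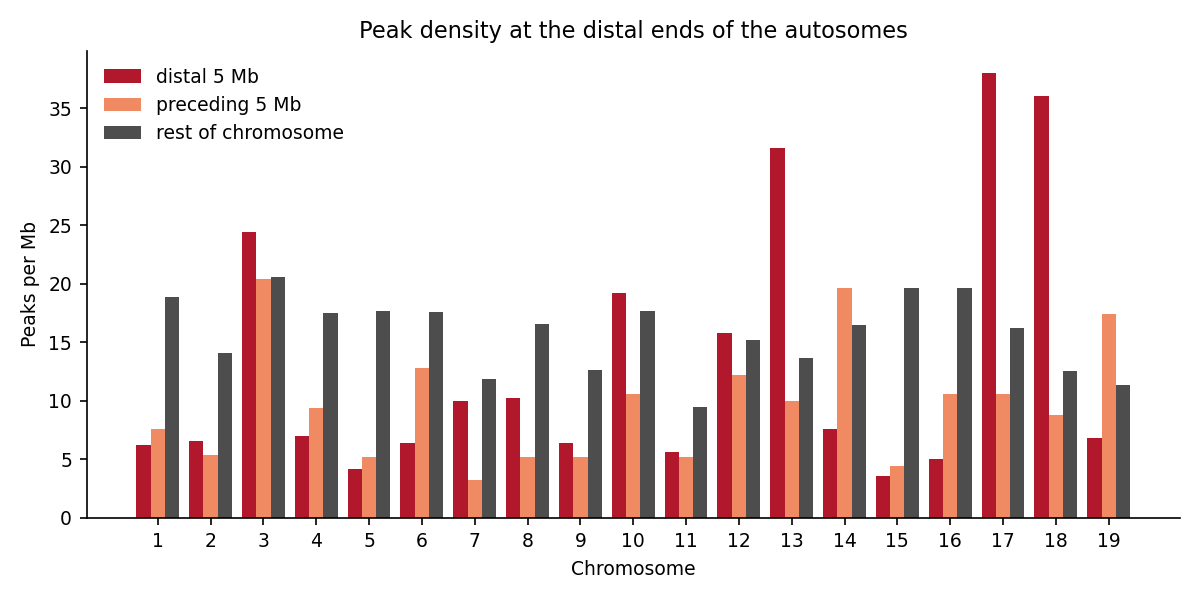
Peaks per Mb (vertical axis) on each autosome (horizontal axis) in the distal 5 Mb, the preceding 5 Mb and the rest of the chromosome. The distal bars of chromosomes 13, 17 and 18 reach 31.6, 38.0 and 36.0 peaks per Mb, while 13 of the 19 distal bars stay at or below 10.2.

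Chromosomes 13, 17 and 18 carried 528 of the 1253 distal peaks (42.1%). The end of chromosome 18 held 180 peaks, 36.0 per Mb against 12.5 in the rest of that chromosome, a ratio of 2.87 (2.44 to 3.37). On chromosome 17 the end held 190 peaks, 38.0 per Mb against 16.2, a ratio of 2.35 (2.01 to 2.73). With 158 peaks, the end of chromosome 13 had 31.6 per Mb against 13.7, a ratio of 2.31 (1.95 to 2.73). Among 5 Mb windows counted back from the last peak, the distal window of chromosome 13 ranked 2 of 23. No window of chromosomes 17 (18 windows) and 18 (17 windows) held more peaks than the distal window. Another window of chromosome 17 also held 190, and some windows of chromosome 17 had a larger share covered by peaks than its end, up to 24.1%. Peaks covered 18.9% of the end of chromosome 17, 15.5% of that of chromosome 18 and 13.6% of that of chromosome 13, against 8.93%, 4.47% and 5.21% in the rest of each. These 3 ends stood clearly apart from the other 16, which together were 0.565 times as dense as the rest of their chromosomes (0.524 to 0.608). The 3 were singled out after their values were seen.

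The ends of chromosomes 3, 10 and 12 lay near the density of their chromosome. Chromosome 3, with 122 distal peaks, was at 1.19 times the rest (0.981 to 1.42), chromosome 10, with 96, at 1.08 (0.874 to 1.33), and chromosome 12, with 79, at 1.04 (0.818 to 1.30). Each of these intervals includes 1. The lowest ratio was on chromosome 15, whose end held 18 peaks, 3.6 per Mb against 19.6 in the rest (0.183, interval 0.108 to 0.291). Chromosome 5 followed with 21 peaks and a ratio of 0.238 (0.147 to 0.364), and its distal window held the fewest peaks of all 29 windows. Both ends were sparse beside the rest of their chromosome. On chromosome 16 the ratio was 0.255 (0.165 to 0.378) from 25 peaks, and on chromosome 1 it was 0.329 (0.223 to 0.468) from 31 peaks. Neighbouring chromosomes in this order had overlapping intervals, so chromosomes 15, 5 and 16 cannot be ranked among themselves.

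Between these extremes lay chromosomes 6 (32 peaks, ratio to the rest 0.364), 4 (35 peaks, 0.400), 14 (38 peaks, 0.461) and 2 (33 peaks, 0.470). Chromosomes 9 (32 peaks), 11 (28 peaks) and 19 (34 peaks) had ratios of 0.507, 0.593 and 0.597. The end of chromosome 8 held 51 peaks (0.616, interval 0.457 to 0.813), of which 16 were input-poor, with a mean input under 0.25 times the list's median, and are described below. On chromosome 7, 50 peaks gave 0.840 (0.621 to 1.11), the only ratio under 1 whose interval reached it. Chromosome 11 was sparse on average, with 9.44 peaks per Mb in its rest, although single 5 Mb windows held up to 147 peaks. Its distal 5.60 per Mb was therefore a smaller step down than the 5.00 per Mb of chromosome 16 against 19.6.

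The 5 Mb just before the distal ends were sparser still. Distal peaks were 1.36 times as many as peaks there (1.25 to 1.49), but this rested on the 3 dense ends. Without chromosomes 13, 17 and 18 the ratio was 0.939 (0.847 to 1.04), and only 8 of the 16 remaining ends were denser than the 5 Mb before them. With windows of 10 Mb in place of 5 Mb the ratio was 0.871 (0.822 to 0.922). On chromosome 18 the step was from 8.80 to 36.0 peaks per Mb, 4.09-fold (2.93 to 5.83), and on chromosome 17 from 10.6 to 38.0, 3.58-fold (2.63 to 4.96). Chromosome 13 rose from 10 to 31.6 (3.16-fold, 2.29 to 4.44) and chromosome 7 from 3.2 to 10 (3.13-fold, 1.75 to 5.88). All 4 ends were at least 3 times as dense as the stretch before them by their point values. The opposite step occurred on chromosome 14, from 19.6 down to 7.60 (0.388, interval 0.259 to 0.569), and on chromosome 19, from 17.4 to 6.80 (0.391, 0.255 to 0.587). Chromosomes 16 and 6 also stepped down, with ratios of 0.472 (0.281 to 0.773) and 0.5 (0.316 to 0.776). In all, 6 chromosomes had an interval above 1 and 4 below it.

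Within the distal 5 Mb, the last Mb held the most peaks in sum, but it was the fullest Mb on only 8 of 19 chromosomes, ties included. It held 337 peaks, 17.7 per Mb, then 249, 228, 235 and 204 in the following Mb going inward, and 161 and 123 in the next pair. The last Mb held 1.65 times as many as the fifth, and it was the fuller of the 2 on 14 chromosomes and the emptier on 4. Because the windows start at a peak, the last Mb always contains that peak, and 318 remained without it. On the 16 chromosomes other than 13, 17 and 18 the last Mb held 15.5 peaks per Mb, against 8.38 in the second, 6.5 in the third, 6.38 in the Mb after it and 8.56 in the fifth. Of the 248 peaks in the last Mb of these 16, chromosomes 3, 10 and 12 gave 125. Farther in, similar densities returned, with 15.1 per Mb between 9 and 10 Mb and 17.4 between 16 and 17 Mb. Chromosomes 13, 17 and 18 had another shape, with 29.7 per Mb in the last Mb and a maximum of 44.3 between 3 and 4 Mb.

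**Figure D2:**
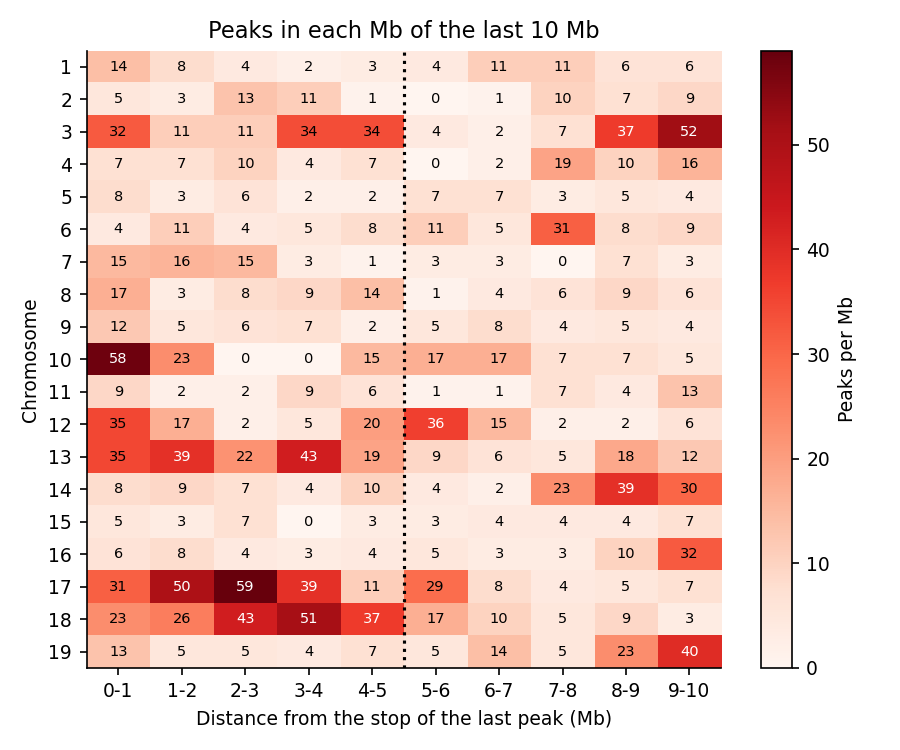
Number of peaks (colour and digits) in each Mb of the last 10 Mb of every autosome (vertical axis), by distance from the stop of the last peak (horizontal axis, Mb). Chromosome 10 has 58 peaks in its last Mb and none between 2 and 4 Mb, while chromosome 18 holds 37 in the Mb next to the border of the distal 5 Mb (dotted line).

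Single chromosomes showed strongly uneven ends. The last Mb of chromosome 10 held 58 peaks and the second 23, followed inward by an empty stretch of 2308002 bp, from 125915258 to 128223259. Chromosome 12 had 35 and 17 peaks in its last and second Mb, then 2 and 5. On chromosome 7 the 3 outermost Mb held 15, 16 and 15 peaks and the next pair 3 and 1, with an empty stretch of 1252123 bp from 147683077 to 148935199. The end of chromosome 15 was interrupted by 1534503 bp without a peak, from 99273742 to 100808244. Chromosome 13, by contrast, had no gap longer than 155205 bp in its distal 5 Mb.

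**Figure D3:**
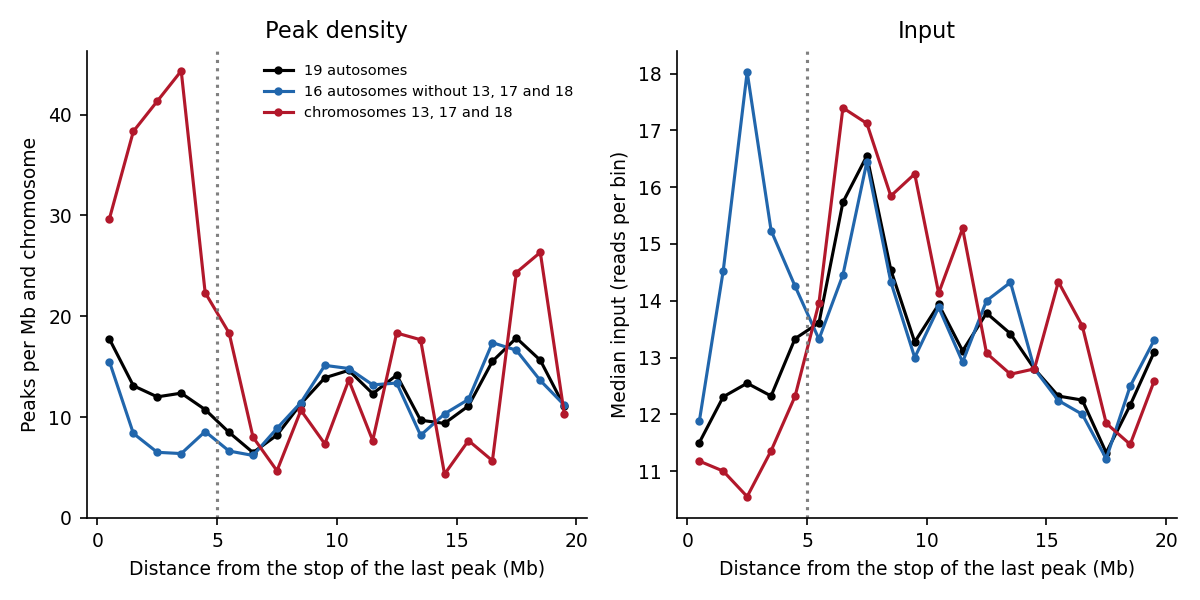
Peaks per Mb and chromosome (left) and median input in reads per bin (right) by distance from the stop of the last peak in steps of 1 Mb, for all 19 autosomes, for 16 and for chromosomes 13, 17 and 18. Peak density of the 16 falls from 15.5 in the last Mb to 6.5 in the third, where their median input is highest at 18.

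Peaks at most ends were narrow. Over all distal peaks the median width was 2618 bp (95% interval of the median 2487 to 2800), against 2653 bp in the preceding 5 Mb and 3126 bp in the rest (3088 to 3153). The median of the 19 chromosome ratios, which gives each chromosome equal weight, was 0.609 against the rest (0.476 to 0.967), with 15 chromosomes lower and 4 higher. The ratio stayed below 1 but its interval reached just past 1 with windows of 2.5 Mb (0.752, 0.523 to 1.02), for flagged peaks (0.579, 0.453 to 1.05), with peaks under 1 kb apart merged (0.597, 0.465 to 1.02) and without input-poor peaks (0.579, 0.467 to 1.001). Pooled over chromosomes, the medians gave 0.837. Chromosome 4 had the lowest ratio, with a distal median of 1252 bp against 3342 bp (0.375), followed by chromosome 16 with 1238 against 2952.5 bp (0.419) and chromosome 7 with 1595 against 3746 bp (0.426). The 4 ends with wider peaks than the rest were those of chromosomes 13 (3794.5 against 2974 bp), 18 (3248.5 against 2848.5 bp), 12 (3474 against 3084 bp) and 17 (3971 against 3868 bp). Of these 4, only chromosome 13 had 95% intervals of the 2 medians that lay apart (3351 to 4139 against 2882 to 3148 bp). Among the 15 ends with narrower peaks, the intervals lay apart on 12. Narrow peaks under 1 kb made up 8.14% of distal peaks (102), against 5.23% of the whole list. Of the 102, 90 lay outside chromosomes 13, 17 and 18. The preceding 5 Mb had nearly the same share, 8.38%, so the excess was not particular to the last 5 Mb. Peaks of 10 kb or more were as frequent distally (54, or 4.31%) as in the list (4.30%), and 32 of the 54 lay on those 3 chromosomes, 17 of them on chromosome 17. Against the preceding 5 Mb the median width ratio was 0.976 (0.648 to 1.29), an interval that includes 1.

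ChIP and input counts were both higher at most of the sparse ends. ChIP is the mean number of anti-FLAG reads per bin of a peak, with bins of about 200 bp as inferred from the values, and input is the same for unprecipitated DNA. The median distal peak had 59.9 ChIP reads per bin (59.3 to 60.5) and 12.3 input reads (12.0 to 12.6), against 58.7 and 11.9 in the rest. By chromosome, the median ratio of distal to rest was 1.16 for ChIP (0.977 to 1.45) and 1.22 for input (0.959 to 1.42). Each was higher on 14 chromosomes and lower on 5, which were chromosomes 8, 10, 13, 17 and 18 for both. Both intervals over chromosomes reach below 1. Without input-poor peaks they did not: the ChIP ratio was 1.18 (1.03 to 1.58) and the input ratio 1.24 (1.07 to 1.42), each higher on 15 chromosomes. The chromosome that changed side was 8, with 69.5 against 59.0 ChIP reads and 13.8 against 12.0 of input.

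On 4 ends the elevation was large. The median ChIP count of chromosome 4 was 111.4 reads per bin at the end against 58.4 in the rest (1.91-fold), with input at 21.9 against 11.9 (1.83-fold). Chromosome 11 had 108.2 against 59.9 ChIP reads (1.81-fold) and 18.3 against 12.7 of input (1.45-fold). For chromosome 7 the values were 102.7 against 58.7 (1.75-fold) and 18.9 against 12.0 (1.58-fold). At the end of chromosome 2 ChIP was 93.2 against 59.0 (1.58-fold) and input 19.6 against 11.8 (1.66-fold). ChIP and input were thus high together at all 4. The 3 dense ends went the other way by a small margin, from 0.946 times the rest on chromosome 18 to 0.977 on chromosome 13 for ChIP, and from 0.885 on chromosome 17 to 0.959 on chromosome 13 for input. The elevation was not particular to the last 5 Mb. In the preceding 5 Mb the median ChIP count was 88.7 on chromosome 4 and 77.2 on chromosome 11. On chromosomes 7 and 2 it was 106.7 and 93.9, above the distal medians. Over the 19 chromosomes the median ratio of distal to preceding was 0.993 for ChIP (0.936 to 1.12) and 1.00 for input (0.802 to 1.09).

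**Figure D4:**
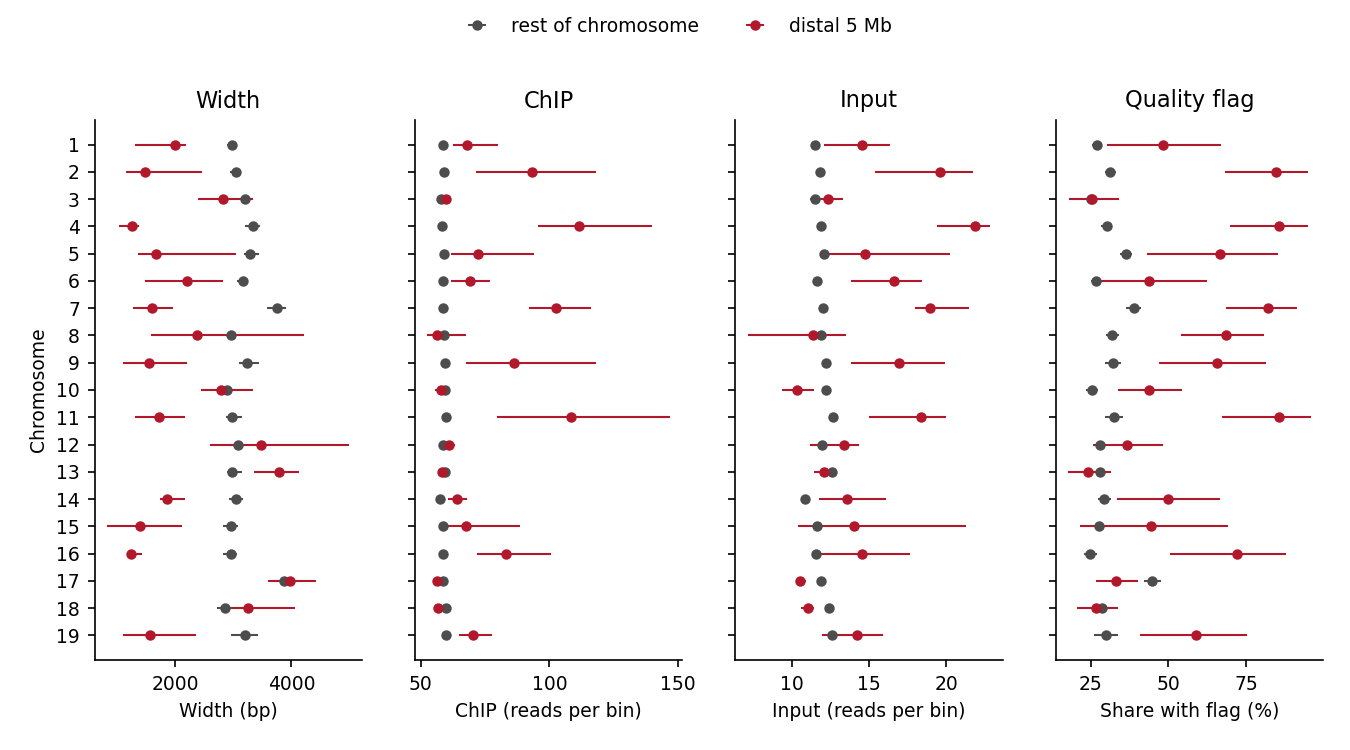
Median width (bp), ChIP and input (reads per bin) and share of peaks with the authors' quality flag (%) for the distal 5 Mb and the rest of each autosome (vertical axis). Lines are 95% intervals of the medians and exact binomial 95% intervals of the shares, and the largest ChIP shifts are those of chromosomes 4, 11, 7 and 2.

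Peaks with 100 or more ChIP reads per bin, a limit chosen after seeing the data, numbered 135 distally (10.8%, exact 95% interval 9.11 to 12.6%), against 4.0% of the list and 3.38% of the rest. All but 1 lay outside chromosomes 13, 17 and 18. Chromosome 7 had 27 of them among 50 peaks, chromosome 4 had 21 among 35, and chromosomes 2 and 11 had 14 each, among 33 and 28. In the preceding 5 Mb the share was 13.4% (11.2 to 15.8%), so high counts were not limited to the last 5 Mb.

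Enrichment, given by the authors as log2 of ChIP over scaled input and averaged over bins, differed little from the rest. The distal median was 1.235 (1.204 to 1.263) against 1.205 in the rest. By chromosome the median difference was 0.06 on the log2 scale (-0.09 to 0.17), higher on 12 chromosomes and lower on 7. Without input-poor peaks it was 0.01 (-0.08 to 0.13), with 10 higher. The largest excess among all peaks was on chromosome 8, at 1.60 against 1.22, but 16 of its 51 distal peaks were input-poor, and without such peaks it was 1.19 against 1.21. Next came chromosome 16, at 1.51 against 1.24 (1.51 against 1.24 also without input-poor peaks), and chromosome 10, at 1.44 against 1.18 (1.43 against 1.18). Chromosome 6 had the lowest distal median, 0.96 against 1.21. The preceding 5 Mb were weaker, with a median of 1.05. Distal medians exceeded them on 15 chromosomes, by a median of 0.21 (0.01 to 0.31), and without input-poor peaks on 16, by 0.14 (0.04 to 0.22). The interval included 0 under other settings. The difference was 0.04 (-0.13 to 0.20) with windows of 2.5 Mb, where 10 of 19 chromosomes were higher, and 0.09 (-0.08 to 0.18) with windows of 10 Mb. It was 0.14 (-0.11 to 0.29) for flagged peaks, 0.16 (-0.03 to 0.31) without chromosomes 13, 17 and 18, and -0.044 with a mean bin p of at most 0.05. The comparison with the preceding 5 Mb was chosen once the data had been seen.

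The quality flag was carried by 538 distal peaks (42.9%, exact 95% interval 40.2 to 45.7%), against a background of 30.8% in the whole list and 29.9% in the rest. On 16 of 19 chromosomes the share was higher at the end than in the rest, by a median of 21.5 percentage points over the 19 (8.94 to 43.2), and the other 3 were chromosomes 13, 17 and 18. It reached 85.7% on chromosomes 4 and 11 (30 of 35 and 24 of 28 peaks), 84.8% on chromosome 2 (28 of 33) and 82.0% on chromosome 7 (41 of 50), against 30.1, 32.5, 31.3 and 38.8% in the rest of each. On chromosome 17 it was 33.2% against 44.8%. The preceding 5 Mb, at 42.0%, had nearly the same share as the distal ends. A mean bin p of at most 0.05 was met by 57 distal peaks (4.55%, exact 95% interval 3.46 to 5.85%), against 3.17% of the list. Of these 57, 22 were input-poor, and among the other distal peaks the share was 2.86%. The 3.17% still counts the input-poor peaks of the list, so the 2.86% has no like background here. The labels do not say how these p-values were computed.

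Fewer peaks went with narrower peaks and more reads, at the ends as elsewhere. Over the 19 distal windows peak number and median width had a Spearman's rho of 0.76 (Pearson's r 0.89); rho was -0.66 for median ChIP (r -0.54) and -0.64 for median input (r -0.62). Over 430 other 5 Mb windows with at least 10 peaks, rho was 0.77, -0.87 and -0.82. The median log2 ratio differed, with a rho of 0.11 over the ends and 0.58 over the other windows. For the flagged share rho was -0.58 and -0.45. All windows share the same 4 libraries and are not independent. Each distal window was also set beside windows elsewhere on the autosomes with a peak number within 20% of its own, 27 to 84 windows for each end. Distal peaks were narrower than the median of such windows at 14 of 19 ends (median ratio 0.896, 0.781 to 1.02) and had more ChIP reads at 14 (1.03, 0.998 to 1.31). Input was higher at 11 and lower at 8 (1.04, 0.925 to 1.13). The flagged share was higher at 16, by a median of 19.5 percentage points (2.75 to 36.5), and the log2 ratio at 14, by 0.16 (-0.03 to 0.26). Against windows of like peak number, the median of each of these measures thus had the same direction as against the rest. Only for the flagged share did the interval exclude no difference. For chromosome 4 the like windows had a median ChIP of 65.1 reads per bin, with quartiles of 63.1 and 69.0, against its 111.4. For chromosome 17 the end, at 56.2, was next to the 56.3 of windows of like number. This matching was chosen after seeing the data.

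**Figure D5:**
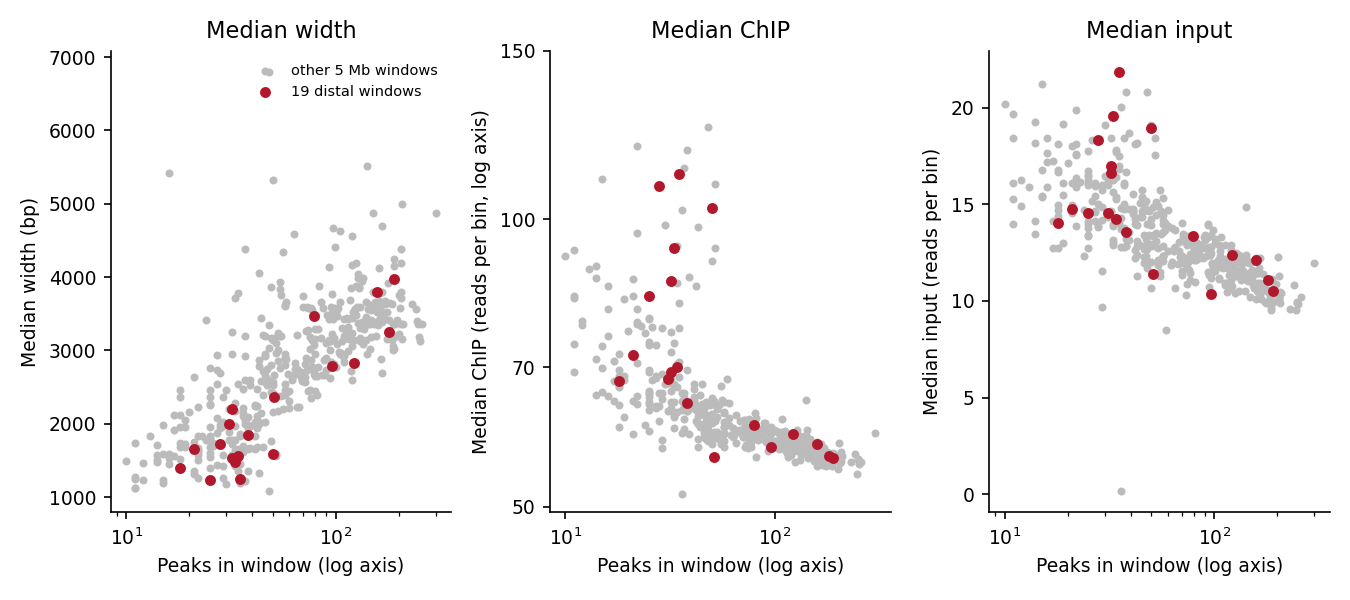
Median width, ChIP and input of the peaks in 5 Mb windows (vertical axes) by number of peaks in the window (horizontal log axis), for the 19 distal windows and for other windows with at least 10 peaks. Several distal windows with under 60 peaks lie in the upper part of the ChIP range of windows with like peak number, among them those of chromosomes 4, 11 and 7 at over 100 reads per bin.

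The 5 peaks with the highest mean ChIP counts per bin lay on chromosomes 1, 2 and 4. Chromosome 1 held the highest, from 193470200 to 193471510, where ChIP averaged 251.6 and input 24.3 reads per bin. Summed over its bins, ChIP was 4.28-fold above scaled input (95% counting interval 3.66 to 5.04). From 178441106 to 178442700 on chromosome 2, 223.1 reads stood over 23.1 of input, 3.99-fold (3.46 to 4.63). On chromosome 4, peaks from 153059234 to 153060600 and from 153687907 to 153689460 had 206.9 and 202.0 reads, 4.02-fold (3.43 to 4.74) and 3.76-fold (3.25 to 4.37). The fifth, from 194647437 to 194648537 on chromosome 1, had 196.3 reads and a ratio of 4.31 (3.55 to 5.27). All 5 were between 1101 and 1595 bp wide, had input above the list's median and carried the flag. Their highest single bin held 471 reads, whereas the highest bin of any distal peak held 1224 and belonged to none of them. Folds here are of summed counts, cover counting error only, and rest on an inferred number of bins.

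Of peaks whose ChIP count was at or above the list's median, the one with the largest log2 ratio was the last peak of chromosome 15. It ran from 103493083 to 103494874 and had 61.2 ChIP reads per bin over 1.30 of input, with a log2 ratio of 5.03 and a fold of 19.5 (11.3 to 36.8). The next, from 158761900 to 158762745 on chromosome 3, had 60.0 over 1.00 (4.51 on the log2 scale), from 4 input counts in all. Of the 10 such peaks, chromosomes 15 and 16 gave 2 each, and the others lay on chromosomes 1, 3, 8, 11, 12 and 17. With ordinary input, between 0.25 and 4 times the list's median, the largest ratio was from 120063207 to 120064939 on chromosome 11. There 179.6 ChIP reads per bin, and 385 in the highest bin, stood over 7.56 of input, 9.82-fold (7.71 to 12.7). From 93455736 to 93456982 on chromosome 16, 150.3 stood over 9.71, 6.39-fold (5.00 to 8.30). The other 3 of the 5, on chromosomes 16, 17 and 1, had 62.0 to 68.0 ChIP reads and folds from 3.19 to 5.82. The ranking used the log2 ratio averaged over bins, and folds of summed counts gave another order. On chromosome 1 the peak had a log2 ratio of 3.32 but a summed fold of only 3.19.

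Input-poor peaks were 30 of the 1253 (2.39%, exact 95% interval 1.62 to 3.4%), against 1.09% of the list, and 19 of them stood in 2 runs. On chromosome 8, all 15 peaks from 127513895 to 127690399 were input-poor and 12 had no input read. They covered 92.2% of the 177 kb, with 37.4 to 53.1 ChIP reads per bin, below the list's median, and log2 ratios from 5.20 to 5.69. The widest distal peak, from 127620600 to 127649356 (28757 bp), was among them, with 52.4 ChIP reads per bin and an input sum of 0. On chromosome 19, the 4 peaks from 56566530 to 56605685 covered 96.2% of 39.2 kb, with 43.9 to 57.4 ChIP reads per bin and at most 1.24 of input. The runs began 4143 kb (chromosome 8) and 4776 kb (chromosome 19) before the stop of the last peak, in the inner part of the distal 5 Mb. Without input-poor peaks, chromosome 8 kept 35 of 51 distal peaks and chromosome 19 kept 30 of 34. Of the 39 distal peaks with a log2 ratio above 3 (3.11%, against 1.48% of the list), 29 were input-poor. Of the 126 above 2 (10.1%, against 7.73% of the list) 30 were. Among distal peaks that were not input-poor the share above 2 was 7.85%. The 7.73% of the list still includes its input-poor peaks, so it is not a like background for that share. Why input was nearly absent there was not tested.

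By counts, width and log2 ratio, the last peaks themselves were ordinary in most cases. Their ChIP counts ranged from 52.5 to 118.1 reads per bin (median 61.0), their input from 1.30 to 25 (median 12.5), their widths from 771 to 6809 bp (median 2938) and their log2 ratios from 0.62 to 5.03 (median 1.12). The flag was carried by 12 of the 19, a larger share, though of few peaks, than the 42.9% of all distal peaks or the 30.8% of the list. That of chromosome 15, described above, and that of chromosome 9, from 124075402 to 124076172 with 52.5 ChIP reads over 2.5 of input (8.68-fold, 4.63 to 18.4), had the highest ratios, both at low input. The last peaks of chromosomes 17 and 19 were among the weakest, at 1.53-fold (1.41 to 1.67) and 1.45-fold (1.29 to 1.63), with inputs of 21.5 and 22.1 reads per bin. At the inner border, the peaks just inside 5 Mb had a median over 19 chromosomes of 71.2 ChIP and 15.2 input reads per bin, and those just outside 67.4 and 15.2.

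Gene names can be given only by order, from a RefSeq annotation of another build (GRCm38.p6), and which of these genes the peaks overlap was not analysed here. The outermost protein-coding genes of the dense end of chromosome 18 include Neto1, an auxiliary subunit of glutamate receptors, Cbln2, a secreted synapse organiser, and Dok6, a docking adaptor of receptor tyrosine kinases. Those of the dense end of chromosome 17 include Adcyap1, which encodes the neuropeptide PACAP, and Fshr and Lhcgr, gonadotropin receptors. The end of chromosome 13 lists Tcstv1 and Tcstv3, genes of early embryos, among predicted genes. Chromosome 10, with 58 peaks in its last Mb, ends in vomeronasal (Vmn2r84 to Vmn2r87) and olfactory receptor genes (Olfr824 to Olfr827), with Tespa1 and Neurod4 between them. Their order does not show which of these genes lie in that last Mb. The ends of chromosomes 4, 11, 7 and 2, those with the largest ChIP medians, include Agrn, the agrin of synapses, Tbcd, a tubulin cofactor, Ccnd1, a cyclin of the G1 phase, and Myt1, a neural zinc-finger factor.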

How the data were processed

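Bowtie 0.12.7 and mm9 are named for the 2 anti-FLAG ChIP and 2 input libraries by the submitters' processing notes. Neither the peak caller nor the way of combining libraries is stated there. The deposited mean ChIP and input values are signal (reads per bin averaged over a peak), the highest bin is a whole-number count, the ratio is a mean log2 of ChIP to scaled input, and p-values are on the −log10 scale, all per the file headers. Scaled input was input times 2.42 in all 37662 peaks with an input read. Depth per library is unknown.

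Each chromosome was split at 5 and 10 Mb before its last peak stop. Ratios of peak numbers have exact 95% counting intervals; medians, and medians over 19 chromosomes, have binomial intervals; shares have exact Clopper-Pearson intervals. Summed counts used the number of 200 bp bins that made sums whole (tolerance 1e-06 reads), and intervals cover counting error only. Input-poor means under 0.25 times the median. No test was run, because 1 list has no replicates. Named peaks were the 10 largest log2 ratios with ChIP at or above the median, the 5 highest ChIP, the 5 widest, the 5 largest ratios at ordinary input and all last peaks. Chromosomes were all reported. The members, borders and comparisons were chosen with earlier results of these data known. Alternatives were windows of 2.5 and 10 Mb, the flag, a mean p of at most 0.05, merging under 1 kb, covered bases, no input-poor peaks, other weighting and leaving out chromosomes. The calculations were tested on simulated data. Software was numpy 2.4.6, pandas 2.3.3 and scipy 1.17.1 under Python 3.11.15, with figures by matplotlib 3.10.9.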

Additional observations from a re-analysis of the deposited data

Results flagged for a closer look

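Chromosome X lies outside the autosomes described above, and is listed because its end carried peaks, which does not show that this end is unusual. Its distal 5 Mb held 10 peaks, against 1 in the preceding 5 Mb and 101 in the other 152 Mb. The density ratio to the rest was 3.0 (exact 95% counting interval 1.40 to 5.75). At this end the median ChIP was 57.2 and the median input 10.3 reads per bin; in the rest of chromosome X they were 93.8 and 2.60.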

How the results depend on the processing

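Settings that leave out chromosomes 13, 17 and 18 or the last peaks, or that join the flag or p limit with another limit, were chosen after seeing the data. Distal over rest density (0.838) became 0.955 with windows of 2.5 Mb, 0.718 with 10 Mb, 0.779 by covered bases, 0.593 as the median of 19 ratios and 0.565 without chromosomes 13, 17 and 18. It rose above 1 with the quality flag (1.197, without input-poor peaks 1.16, without the 3 chromosomes 1.03, interval 0.932 to 1.14) and with a mean p of at most 0.05 (1.30, interval 0.981 to 1.70), but with that p limit and no input-poor peaks it was 0.941. Distal over preceding density (1.36) became 0.871 with windows of 10 Mb, 0.939 without chromosomes 13, 17 and 18 and 0.729 with the p limit and no input-poor peaks. It was 1.12 with the p limit, 1.196 as the median of ratios and 1.17 for flagged peaks without the 3 chromosomes. The p limit left few peaks and moved the width ratio to 0.408 against the rest and 1.74 against the preceding 5 Mb, the ChIP ratio to 1.82 and 0.873, and the log2 difference from the preceding 5 Mb from 0.21 to -0.044. The log2 difference from the rest (0.06, interval including 0) was -0.01 with windows of 2.5 Mb, -0.08 with 10 Mb and -0.06 for flagged peaks. Windows of 2.5 Mb moved the ChIP ratio to the preceding 5 Mb from 0.993 to 0.932. Fewer peaks follow from stricter limits by construction, and for the other shifts the cause was not tested. The other 68 values stayed within the interval of the reported one.

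Leaving out each chromosome in turn gave density ratios of 0.749 to 0.884 (rest) and 1.23 to 1.48 (preceding), width ratios of 0.593 to 0.640 and 0.956 to 0.983, ChIP ratios of 1.16 to 1.17 and 0.989 to 1.01, and input ratios of 1.21 to 1.23 and 1.000 to 1.01. The log2 difference was 0.04 to 0.07 (rest) and 0.19 to 0.22 (preceding), and the flagged share 21.1 to 25.3 percentage points. No paired analysis was possible because all libraries share 1 value per peak, and for that reason no library could be left out.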
